A study of Mus musculus with 9 samples.

Results

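The 1 Mb of mouse chromosome 8 that surrounds Hand2 (GRCm38, chr8:56800000-57800000) was described in the broad peaks of H3K27ac and H3K4me1 in oviductal muscle cells. All peaks that touched this domain were taken from 8 peak lists, which gave 631 of the 848955 peaks in those lists. The 70 kb around Hand2 and Hand2os1 (chr8:57275000-57345000) formed the core, and the remaining sequence formed an upstream flank of 475 kb and a downstream flank of 455 kb. The sides are named by the direction of Hand2 transcription, so upstream runs toward lower coordinates. Peaks touched the core 73 times, the upstream flank 204 times and the downstream flank 356 times, with a peak across a border counted on both sides.

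Primary muscle cells were isolated from the oviducts of WT mice, 8 to 12 weeks of age, on D2 of pregnancy, and were cultured briefly and fixed. Chromatin was profiled by ChIC-Seq, in which an antibody directs a micrococcal nuclease fused to protein A to cut around the bound mark, with 50000 cells per library. The groups shared this genotype, age and day and differed in the antibody: 3 samples for H3K27ac, 3 for H3K4me1 and 3 for IgG, the control for non-specific cutting. Each H3K27ac and H3K4me1 sample had its own peak list, each mark had 1 further list called on its 3 samples pooled, and the IgG libraries entered as controls of those calls.

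The product of Hand2 is a DNA-binding protein of the bHLH class. The heart, the limb buds and the branchial arches do not form normally without it, and in uterine stroma, where progesterone induces it, it restrains growth of the overlying epithelium before implantation. Hand2os1, also called Upperhand, is a long noncoding RNA transcribed in the opposite direction from the region beside the Hand2 promoter, and known heart and branchial arch enhancers of Hand2 lie within and around it. H3K27ac marks active promoters and active enhancers. H3K4me1 marks enhancers, whether active or not, and is typically low immediately at active promoters, so the pair of marks separates classes of regulatory sequence. Regulatory genes of development often lie beside long stretches without coding genes that hold remote enhancers.

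Depth and cell identity bear on all values below. The H3K27ac libraries held 40551842 to 42040809 fragments and the H3K4me1 libraries 41891318 to 78891920, whereas the IgG libraries used as controls held 3110985 to 3713369. Among the 6 replicate lists, IgG library 1 served as the control of H3K27ac replicate 1 only, IgG library 2 as that of H3K27ac replicate 2 and of the first and second H3K4me1 replicates, and IgG library 3 as that of both lists numbered 3, while the pooled lists were called against all 3 IgG libraries. Peaks covered 5.30% of the genome in H3K27ac replicate 1, 3.76% and 3.34% in replicates 2 and 3, and 4.75% to 5.06% in the H3K4me1 lists. Promoters of 4 of 8 smooth muscle marker genes carried both marks in all 3 replicates, among them Acta2 and Des, beside 24.3% of all protein-coding genes, while Myh11 had H3K27ac in 0 replicates and H3K4me1 in 1. The corresponding counts were 0 of 8 for epithelial, 0 of 8 for blood and 0 of 8 for endothelial markers. Single marks were found at some of these. H3K27ac alone was in all 3 replicates at the blood markers Ptprc and Cd68, the endothelial marker Emcn had H3K27ac in 3 and H3K4me1 in 2, and the epithelial marker Krt8 had H3K27ac in 1 and H3K4me1 in 3.

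To show the sequences on which the description turns, windows of 300 bp or less were read from the GRCm38.p6 reference, plus strand, at the stretch of each element that lay under peaks of the most lists. An element is an unbroken run of sequence under the pooled peaks of either mark, and it was called distal when it touched no window of 1000 bp on either side of an annotated transcript start. Capitals mark matches, on either strand, to 6 motifs: the AP-1 site TGANTCA, the TEAD site CATTCC, the E-box CATCTG that HAND and TWIST proteins bind, the GATA site AGATAA, the steroid receptor site ACANNNTGT and the CArG box of serum response factor. The 6 windows are the outermost distal elements on either side, the longest upstream element with both marks, the longest H3K4me1 element with no H3K27ac in any list, and 2 of the 5 longest elements with both marks.
Upstream 488 kb, both marks, chr8:56832230-56832394: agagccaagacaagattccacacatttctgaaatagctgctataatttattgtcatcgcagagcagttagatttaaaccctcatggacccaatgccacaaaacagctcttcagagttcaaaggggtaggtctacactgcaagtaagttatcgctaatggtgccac
Upstream 234 kb, both marks, chr8:57087309-57087608: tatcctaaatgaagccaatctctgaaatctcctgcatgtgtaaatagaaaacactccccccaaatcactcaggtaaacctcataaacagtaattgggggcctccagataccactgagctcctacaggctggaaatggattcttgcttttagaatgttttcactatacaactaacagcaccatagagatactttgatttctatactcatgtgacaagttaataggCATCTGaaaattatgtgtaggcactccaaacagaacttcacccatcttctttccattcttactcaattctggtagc
Upstream 129 kb, H3K4me1 alone, chr8:57191280-57191579: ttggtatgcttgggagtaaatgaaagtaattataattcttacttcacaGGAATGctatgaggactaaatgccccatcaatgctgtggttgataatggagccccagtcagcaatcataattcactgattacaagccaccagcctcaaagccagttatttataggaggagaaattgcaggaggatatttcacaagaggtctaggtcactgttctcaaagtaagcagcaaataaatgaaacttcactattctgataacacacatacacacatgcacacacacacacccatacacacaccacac
Downstream 36.7 kb, both marks, chr8:57361685-57361984: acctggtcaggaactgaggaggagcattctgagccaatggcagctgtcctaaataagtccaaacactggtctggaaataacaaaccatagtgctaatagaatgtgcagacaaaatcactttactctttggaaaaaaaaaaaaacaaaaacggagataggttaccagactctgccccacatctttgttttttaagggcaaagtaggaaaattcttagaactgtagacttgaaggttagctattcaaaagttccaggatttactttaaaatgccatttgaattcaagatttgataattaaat
Downstream 106 kb, both marks, chr8:57427365-57427664: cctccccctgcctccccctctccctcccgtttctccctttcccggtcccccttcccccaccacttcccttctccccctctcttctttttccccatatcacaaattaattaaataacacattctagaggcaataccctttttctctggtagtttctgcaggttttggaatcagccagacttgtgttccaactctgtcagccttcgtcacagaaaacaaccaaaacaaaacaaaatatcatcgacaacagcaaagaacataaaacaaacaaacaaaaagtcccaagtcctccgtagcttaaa
Downstream 479 kb, both marks, chr8:57799959-57800258: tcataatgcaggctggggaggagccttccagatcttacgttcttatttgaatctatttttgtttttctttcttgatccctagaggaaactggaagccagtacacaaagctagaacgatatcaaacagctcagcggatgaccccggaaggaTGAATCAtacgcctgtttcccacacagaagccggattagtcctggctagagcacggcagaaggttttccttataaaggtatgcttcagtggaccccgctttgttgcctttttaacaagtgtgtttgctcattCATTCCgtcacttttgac

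The 250 bp before the Hand2 start (chr8:57320733-57320982, plus strand, RefSeq promoter set on GRCm38.p6) are shown because H3K27ac peaks and no H3K4me1 peak were called over this sequence. Capitals mark the E-box CATCTG, the GATA site AGATAA, the CCAAT box CCAAT and the GC box GGGCGG on either strand.
Hand2 promoter: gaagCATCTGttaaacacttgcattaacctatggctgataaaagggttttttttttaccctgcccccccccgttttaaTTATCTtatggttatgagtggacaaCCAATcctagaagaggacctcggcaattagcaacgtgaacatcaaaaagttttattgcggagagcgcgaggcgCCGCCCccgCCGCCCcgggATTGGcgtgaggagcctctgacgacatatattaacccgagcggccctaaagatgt

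Across the whole domain the replicate lists of the 2 marks overlapped in coverage, and the marks were laid out differently. H3K27ac was concentrated on the core, around the Hand2 promoter, whereas H3K4me1 was spread more evenly and covered more of the downstream flank. In the pooled lists, H3K4me1 covered more of the domain, at 15.1% with 78 peaks against 9.16% with 44 peaks for H3K27ac. H3K27ac peaks covered 44.5%, 38.6% and 40.1% of the core in replicates 1, 2 and 3, and H3K4me1 peaks covered 17.6%, 20.1% and 21.5%. Every H3K27ac list lay above every H3K4me1 list, and the means were 41.1% ± 3.09 and 19.7% ± 1.97 (SD, n = 3 each), a ratio of 2.08. The pooled lists were closer, at 46.9% for H3K27ac and 37.3% for H3K4me1. In the downstream flank the order was the opposite. H3K27ac covered 9.98%, 9.60% and 9.15% of it and H3K4me1 covered 12.5%, 14.4% and 14.1%, with no overlap of the groups and a ratio of means of 0.699. This separation ended when each list was divided by its own genome-wide share, which gave 1.88, 2.56 and 2.74 for H3K27ac and 2.48, 2.91 and 2.97 for H3K4me1. It also ended with peaks of −log10 p of at least 1.3 alone, where the ratio was 0.794 (exact permutation p = 0.7).

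In the upstream flank the H3K27ac replicates differed among themselves. H3K27ac covered 8.06% of it in replicate 1 and 2.70% and 2.79% in replicates 2 and 3. H3K4me1 covered 6.08%, 7.11% and 7.05%. With all lists the groups overlapped and the ratio of means was 0.669, and without H3K27ac replicate 1 the ratio was 0.407 with no overlap. Replicate 1 was also the replicate list with the largest genome-wide coverage and the one without an IgG library in common with any other replicate list, and the part of either in this difference was not tested. Relative to its own genome-wide share, H3K27ac in the upstream flank stood at 1.52 in replicate 1 and at 0.719 and 0.835 in replicates 2 and 3, and H3K4me1 at 1.20, 1.43 and 1.48.

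**Figure D1:**
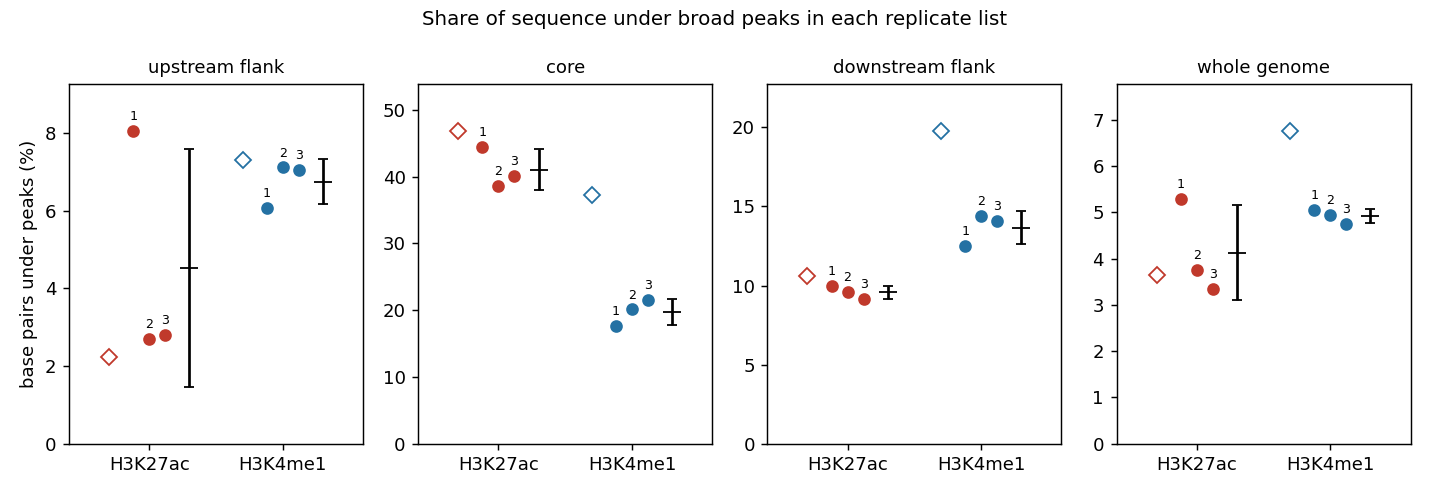
Percent of base pairs under broad peaks (vertical axes, each from 0) in the upstream flank, the core, the downstream flank and the whole genome. Filled circles are replicate lists, numbered, open diamonds the pooled lists, and black bars the mean ± SD of the 3 replicates. The H3K27ac circles sit above the H3K4me1 circles in the core and below them in the downstream flank, and H3K27ac replicate 1 sits at 8.06% in the upstream flank, apart from 2.70% and 2.79%.

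The ratio of core to flank coverage summarised this layout in each list. It was 4.95, 6.35 and 6.79 for H3K27ac and 1.90, 1.88 and 2.04 for H3K4me1, so the lowest H3K27ac list was above the highest H3K4me1 list. Peaks in the domain were narrower for H3K27ac, with median widths of 552, 680 and 675 bp, than for H3K4me1, with 716, 1110 and 1047 bp, and these groups did not overlap either. The H3K4me1 list at 716 bp came from 41891318 fragments, within the range of the H3K27ac libraries. Those at 1110 and 1047 bp came from 78891920 and 64063996, and the part of depth was not tested. With peaks of −log10 p of at least 1.3 alone the order was the opposite, with H3K27ac peaks 2.00 times as wide and again no overlap. For the core share, the downstream share, the core to flank ratio and the median width, an exact two-sided permutation test, which enumerated all 20 ways to split the 6 lists 3 against 3, gave p = 0.1, the smallest this design allows, and 0.175 after adjustment over 7 measures. The domain share (8.30% to 11.5% against 9.83% to 11.3%, exact permutation p = 0.4, and with the −log10 p filter a turned ratio of 2.15 with exact permutation p = 0.1), the upstream share (exact permutation p = 0.4) and the number of peaks (68 to 114 against 78 to 96, exact permutation p = 1.0) overlapped between the marks. No source states that the replicates came from separate animals or cultures, so these p-values measure the spread between these samples, which may be technical.

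Values are also given for the lists that shared an IgG library. In the core and downstream flank all lists of the marks were already apart, so these subsets could only repeat the directions. Against IgG library 2, the core share was 38.6% for H3K27ac and 18.8% for the mean of 2 H3K4me1 lists, and against IgG library 3 it was 40.1% and 21.5%. The downstream share was 9.60% and 13.5% with the former and 9.15% and 14.1% with the latter. For the upstream flank these pairs were 2.70% and 6.60%, and 2.79% and 7.05%. They leave out H3K27ac replicate 1, at 8.06%, which shared no IgG library with an H3K4me1 list.

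Compared with other windows of the genome, the domain ranked high for both marks and its core ranked higher still for H3K27ac. Among 2625 consecutive windows of the domain's length, its coverage stood at the percentiles 91.2, 88.6 and 92.0 in the H3K27ac lists and 84.8, 90.5 and 91.5 in the H3K4me1 lists. Among 37616 windows of the core's length, the core stood at 99.6, 99.6 and 99.8 for H3K27ac and at 92.0, 93.7 and 94.8 for H3K4me1. The pooled H3K27ac peak over the Hand2 start ranked 13 by length among 64843 pooled H3K27ac peaks. These ranks describe the domain and carry no test, since it was chosen around a gene of interest.

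**Figure D2:**
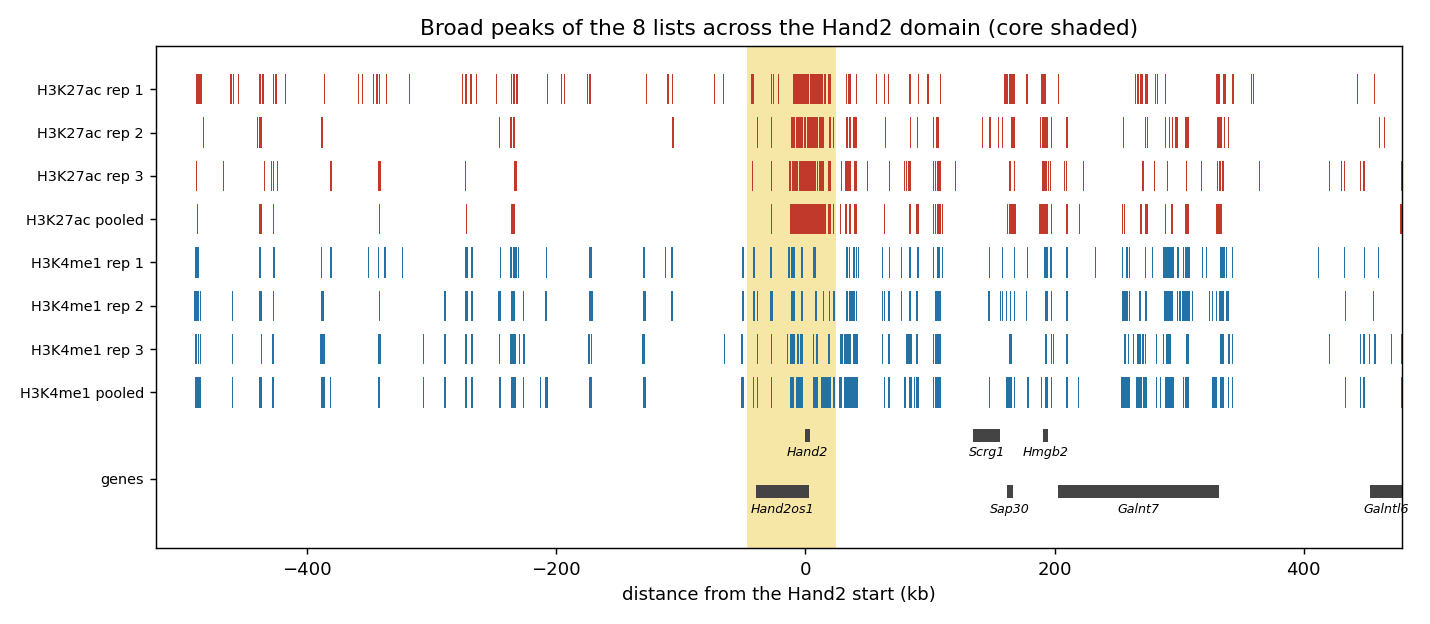
Broad peaks of the 6 replicate and 2 pooled lists (rows) by distance from the Hand2 start in kb, with the bodies of Hand2, Hand2os1 and the other protein-coding genes below and the core shaded. H3K27ac peaks are dense in the core and again over Sap30, Hmgb2 and the start of Galnt7, H3K4me1 peaks run through Galnt7, and no coding gene lies in the upstream flank.

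Around the Hand2 start the marks did not overlap. Hand2 lies at chr8:57320983-57324633 on the plus strand, and an H3K27ac peak lay over its start in every list. That peak was 12.7 kb long in replicate 1, 1.07 kb in replicate 2 and 13.8 kb in replicate 3, with the authors' fold enrichment over IgG at 2.72, 2.10 and 2.43. The short peak of replicate 2 had neighbours, the nearest of which ended 1.86 kb before and began 1.16 kb after the start. H3K27ac covered 77.1%, 75.6% and 100% of the Hand2 gene body and H3K4me1 covered 0% in each of the 3 lists and in the pooled list. The stretch around the start without H3K4me1 was 7.21, 9.83 and 8.36 kb long in replicates 1, 2 and 3, with the nearest H3K4me1 peak ending 2.06 to 2.17 kb before the start in each and resuming 5.05, 7.69 and 6.30 kb after it. H3K27ac in all 3 replicates with H3K4me1 in none held for 4.19% of 21853 protein-coding genes, and Hand2 was among them.

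**Figure D3:**
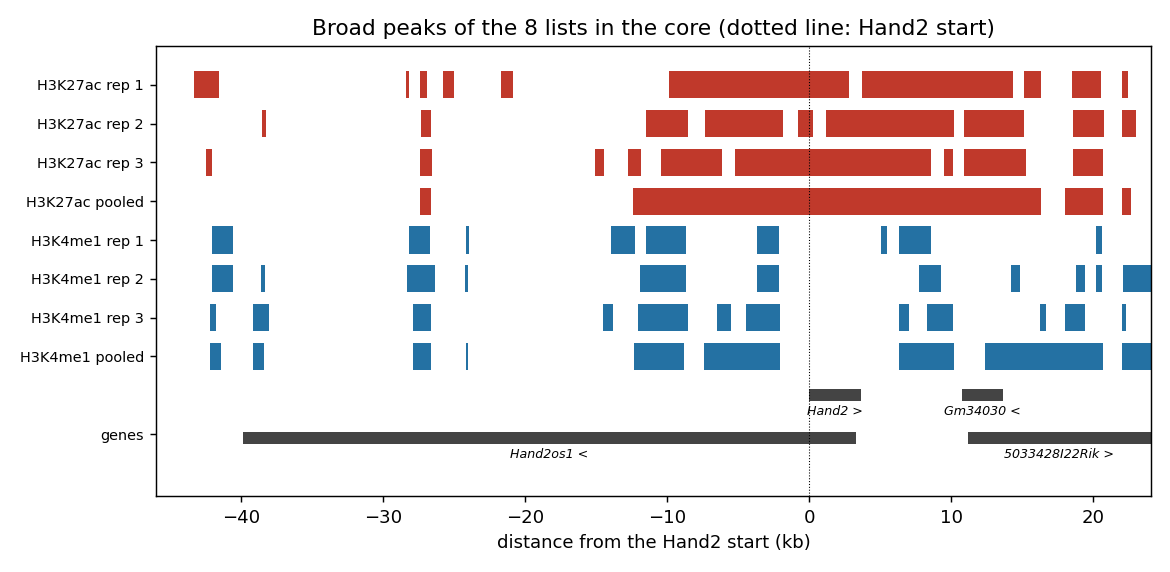
Broad peaks in the core by distance from the Hand2 start in kb, for 6 replicate and 2 pooled lists, with gene bodies below and the direction of transcription beside each name. H3K27ac peaks cross the Hand2 start (dotted line) in every row, and H3K4me1 peaks stop 2.06 to 2.17 kb before it and resume 5.05 to 7.69 kb after it.

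Hand2os1 (chr8:57281117-57324233, minus strand) has 32 annotated transcript starts, of which 22 lie within 1000 bp of the Hand2 start. Windows of 1000 bp on either side of 30 of these starts held H3K27ac in all 3 replicates, and 23 of those held no H3K4me1 in any replicate. The windows of the 22 overlap that of Hand2, so these counts are not separate observations. They have no share over all annotated starts beside them. Only 4 starts had H3K4me1 in all 3 replicates and 3 of these also had H3K27ac in all 3. One of the 3 was the start 27 kb upstream of Hand2, within an element of 1284 bp (chr8:57293043-57294326) that H3K27ac covered to 42.1%, 56.4% and 58.9% and H3K4me1 to 92.4%, 100% and 97.7%. It was separate from the large element over the Hand2 start. That element was 33106 bp long (chr8:57308556-57341661) and was covered to 80.4%, 75.2% and 77.9% by H3K27ac and to 23.2%, 24.3% and 34.0% by H3K4me1. Within the pooled lists, 63.5% of H3K27ac sequence in the core also lay under H3K4me1, against 97.3% in the upstream flank and 78.1% in the downstream flank.

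The Hand2 promoter sequence shown above was less GC-rich than most, at 49.2% against a median of 52.4% over 32851 RefSeq promoter windows, yet held 15 CpG dinucleotides against a median of 6. It held 2 CCAAT boxes, a motif found in 33.8% of all promoter windows, and 2 GC boxes, found in 32.7%. It held 1 match each to the HAND/TWIST E-box (14.4% of promoters) and the GATA site (9.99%). The letters TATAAA (12.4% of promoters) and the steroid receptor motif (5.84%) did not occur in these 250 bp. A match describes the letters and does not show that a factor binds.

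The remaining protein-coding genes all lay downstream. Scrg1 (chr8:57455923-57477585), which encodes a secreted peptide linked to cartilage formation, had neither mark at its promoter in any list. Sap30 (chr8:57482707-57487860), a subunit of the SIN3 histone deacetylase complex, had H3K27ac at its promoter in 3 replicates and H3K4me1 in 2. Hmgb2 (chr8:57511907-57515999), a DNA-bending high mobility group protein, had both marks in 3 of 3 replicates. Galnt7 (chr8:57523828-57653032) and Galntl6 (chr8:57774052-58912640) encode enzymes of the family that starts mucin-type O-glycosylation. At Galnt7 promoters H3K27ac was found in 3 replicates and H3K4me1 in 2, and at Galntl6, with 9 annotated starts and most of its body beyond the domain, in 2 and 3. Thus 1 of 6 coding genes, Hmgb2, had both marks in all replicates, beside 24.3% of all coding genes, and 4 of 6 had H3K27ac in all replicates, beside 45.9%. Of the 20 other annotated genes, mostly noncoding RNAs and pseudogenes and with Hand2os1 among them, 6 had H3K27ac in all 3 replicates, 3 had H3K4me1 in all 3 and 4 had neither mark in any replicate, beside 9.58%, 9.35% and 67.2% of 33475 genes of the genome that are not protein-coding. Several of the 20 share a start region with a coding gene.

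Coverage along the domain followed this arrangement of genes in part. In 50 kb intervals counted from the Hand2 start, H3K27ac coverage was 24.5% ± 3.76 just upstream of the start and 43.9% ± 2.14 just downstream (SD, n = 3), then 9.31% ± 3.62 and 7.06% ± 3.75, and it was 20.8% ± 4.65 from 150 to 200 kb, the interval with Sap30 and Hmgb2. Mean H3K4me1 coverage was highest in the interval from 250 to 300 kb, inside Galnt7, at 29.9% ± 2.78, where H3K27ac covered 12.0% ± 6.12. The maximum fell elsewhere in single lists, from 300 to 350 kb in replicate 2 (33.8% against 32.4%) and from 0 to 50 kb in replicate 3 (33.4% against 26.9%) and the pooled list (56.7% against 49.9%). In that interval beside the Hand2 start the pooled H3K4me1 list lay above the pooled H3K27ac list, at 51.9%, unlike the replicates. In the upstream flank its highest value was 15.6% ± 2.69, from 200 to 250 kb upstream. All 3 lists of one mark lay beyond all 3 of the other in 5 of 19 intervals, with H3K27ac above in 2 and H3K4me1 above in 3, beside 5.95% and 12.0% of 52665 intervals of this length across the genome.

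**Figure D4:**
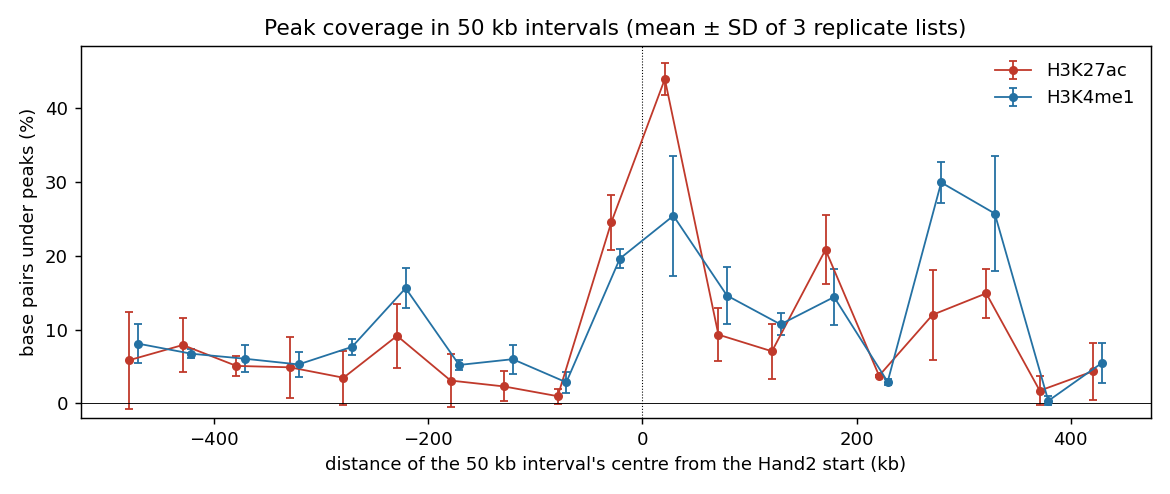
Percent of base pairs under broad peaks in consecutive 50 kb intervals, by distance of the interval's centre from the Hand2 start in kb, as mean ± SD of 3 replicate lists per mark. H3K27ac peaks at 43.9% just downstream of the Hand2 start, and mean H3K4me1 is highest, at 29.9%, between 250 and 300 kb downstream and reaches 15.6% between 200 and 250 kb upstream.

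The pooled lists divided the domain into 74 elements, of which 6 touched the core, 26 lay upstream and 42 downstream. All 26 upstream elements and 33 of the 42 downstream elements were distal. Of these 59 distal elements, 24 (40.7%) carried both marks, 33 (55.9%) carried H3K4me1 alone and 2 (3.39%) carried H3K27ac alone. The shares among 87863 distal elements of the genome were 33.0%, 57.4% and 9.57%. Both marks were found on 8 of 26 upstream elements and 16 of 33 downstream ones, and H3K4me1 alone on 17 and 16. Elements with both marks were the longer ones, with a median of 2244 bp against 834 bp for H3K4me1 alone, beside 1999 and 685 bp genome-wide. An element joins overlapping peaks of both lists, so its length and its class are not independent by definition.

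Replicate support in the flanks was set beside that of the whole lists. Peaks of all 3 replicates of its mark overlapped 17 of 40 pooled H3K27ac peaks in the flanks, or 42.5% (95% Wilson interval 28.5% to 57.8%, counting error only), beside 39.4% of all pooled H3K27ac peaks. For H3K4me1 the count was 37 of 69, or 53.6% (42.0% to 64.9%), beside 43.8%. No replicate peak of the same mark met 3 of the pooled H3K27ac peaks and 6 of the pooled H3K4me1 peaks. In the other direction, 58.7% of the 104 flank peaks of H3K27ac replicate 1 met no peak of the other H3K27ac replicates, against 37.3% of 59 and 42.9% of 63 in replicates 2 and 3. Over all peaks of these lists the shares were 62.9%, 44.5% and 43.3%. In the H3K4me1 lists this share was 23.0% of 87, 11.9% of 67 and 15.9% of 69, beside 30.9%, 15.8% and 31.6% of all their peaks.

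Both marks were each found in all 3 replicates on 12 distal elements, 5 upstream and 7 downstream, which is 20.3% of the distal elements beside 11.5% in the genome. The upstream elements were centred 488, 427, 342, 272 and 234 kb from the Hand2 start, and none of this class lay between the last of these and the core. The one at 234 kb (chr8:57084649-57088660, 4012 bp) was the longest of them. H3K27ac covered 63.9%, 64.5% and 58.4% of it in replicates 1, 2 and 3 and H3K4me1 covered 72.1%, 87.2% and 100%. The outermost, at 488 kb (chr8:56831321-56834609, 3289 bp), was covered by H3K27ac to 96.8% in replicate 1 but to 13.3% and 17.9% in replicates 2 and 3, whereas H3K4me1 covered 86.3%, 86.0% and 63.0%. The Hand2 start was the nearest coding start to the element at 234 kb, and that of Fbxo8, 245 kb away, was the nearest to the outermost one. Nearness does not show which gene an element acts on.

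Downstream, the longest element with this support lay 36.7 kb from the Hand2 start (chr8:57351812-57363580, 11769 bp) and partly in the noncoding gene 5033428I22Rik. It was a single pooled H3K4me1 peak. H3K27ac covered 30.5%, 49.3% and 51.7% of it and H3K4me1 covered 41.6%, 60.0% and 84.2%. At 106 kb (chr8:57424963-57429796, 4834 bp, intergenic) H3K27ac covered 22.8%, 42.2% and 75.4% and H3K4me1 covered 52.2%, 92.5% and 98.5%, so the ranges of the marks overlapped. The intergenic element at 63.5 kb (chr8:57383759-57385216) was the only other one between the core and Scrg1.

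Galnt7 introns held a further cluster. Of 10 distal elements inside the gene, 6 had both marks and 4 had H3K4me1 alone, beside 33.0% and 57.4% of distal elements genome-wide, and together they spanned 28.1 kb. Both marks were in all 3 replicates on 3 of the 6, and the element at 220 kb met no replicate peak of either mark. The element 292 kb from the Hand2 start (chr8:57609382-57616693, 7312 bp) was mainly an H3K4me1 element, with 100%, 92.1% and 58.4% covered by H3K4me1 and 4.88%, 29.0% and 6.93% by H3K27ac. The one at 273 kb (chr8:57591744-57596299, 4556 bp) had more even marks, with H3K27ac on 57.8%, 38.9% and 24.4% and H3K4me1 on 21.1%, 36.9% and 46.8%. The outermost downstream element, 479 kb away in a Galntl6 intron (chr8:57798669-57802123, 3455 bp), crossed the border of the domain and was covered by H3K27ac to 44.6%, 21.2% and 50.6% and by H3K4me1 to 24.7%, 22% and 70.9%. Beyond Galnt7 the longest stretch without any pooled peak ran for 89.3 kb, from 344 to 433 kb, and contained no coding gene. Replicates 1, 2 and 3 had 8, 1 and 4 H3K27ac peaks and 4, 0 and 3 H3K4me1 peaks in it. The next longest, of 41.2 kb, lay between 107 and 65.6 kb upstream of Hand2. It held 3, 2 and 1 H3K27ac peaks and 1, 1 and 1 H3K4me1 peaks of the replicates.

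Elements with H3K4me1 alone depended on how strictly H3K27ac was sought. Of the 33 distal elements with H3K4me1 alone in the pooled lists, 24 met an H3K27ac peak in at least 1 replicate, and in 11 of these it was replicate 1 alone. The other 9, or 15.3% of the distal elements beside 31.3% genome-wide, had no H3K27ac peak in any of 4 lists. Only 2 of the 9 had H3K4me1 in all 3 replicates, and both lay upstream. The element at 129 kb (chr8:57190321-57192651, 2331 bp) was covered to 51.8%, 97.5% and 65.9% by H3K4me1, with fold enrichment of 1.55, 1.55 and 1.60. The element at 50.6 kb (chr8:57269554-57271301, 1748 bp), just outside the core, was covered to 61.7%, 62.2% and 78.7%, and it was named for meeting both conditions after its values were seen. Of the longer elements in this class, that at 172 kb upstream (chr8:57147154-57150008, 2855 bp) met H3K27ac in replicates 1 and 3, over 67.6% and 25.5% of its length, and that at 448 kb downstream (chr8:57768305-57770461, 2157 bp) in replicates 2 and 3, over 22.5% and 79.7%.

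H3K27ac without H3K4me1 was rare among distal elements of the pooled lists. The only members of this class were an upstream element of 289 bp at 107 kb and a downstream one of 204 bp at 148 kb, in Scrg1, named here because they were the only ones. The upstream element lay fully under H3K4me1 peaks of replicates 1 and 2, although not of the pooled list. The downstream element was found in H3K27ac replicate 2 alone. Neither had H3K27ac in all 3 replicates. When each mark was taken instead as sequence under peaks of at least 2 of its 3 replicate lists, 10 distal elements had H3K27ac alone, 27 had both marks and 41 had H3K4me1 alone.

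**Figure D5:**
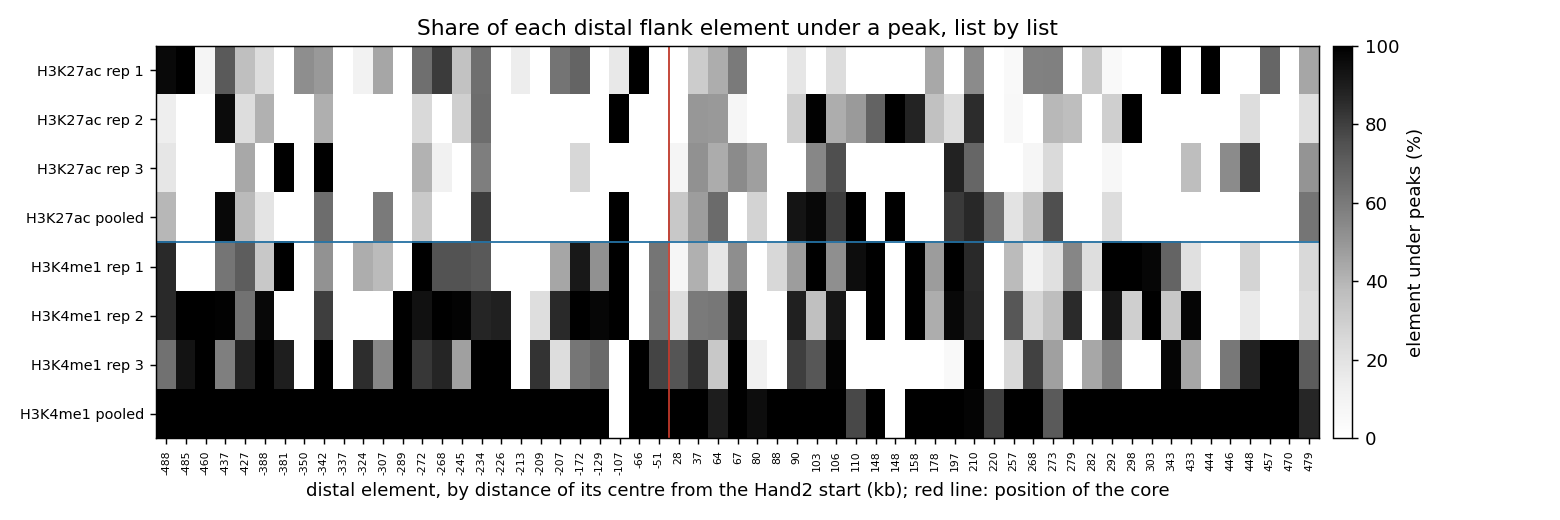
Percent of each of the 59 distal flank elements (columns, ordered by distance from the Hand2 start in kb) under peaks of each list (rows), from white at 0% to black at 100%. The red line is the position of the core and the blue line parts the marks. The pooled H3K4me1 row is dark in all but 2 columns, and the H3K27ac rows fill differently in each replicate, with replicate 1 touching 19 of 26 upstream elements and replicates 2 and 3 touching 9 and 8.

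Agreement between lists was scored inside the domain as the Jaccard index, the base pairs shared by 2 lists over those in either. It was 0.299 to 0.356 for the 3 pairs of H3K27ac lists and 0.310 to 0.485 for the 3 pairs of H3K4me1 lists. Between marks it was 0.202 to 0.316 over 9 pairs, so that the ranges met. The 3 pairs of different marks called against the same IgG library scored 0.296 to 0.316, above the 0.202 to 0.261 of the 6 pairs with different IgG libraries. Within marks, the highest pair, H3K4me1 replicates 1 and 2 at 0.485, was also the one that shared an IgG library, and the other H3K4me1 pairs scored 0.310 and 0.413. Among pairs with different IgG libraries, the mean within marks exceeded that between marks by 0.116, beside 0.113 over all pairs.

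The distal sequences of the flanks were compared with those of the genome over windows of 300 bp centred on the stretch with the most lists. Median GC content was 37.5% in the 26 upstream windows and 43.3% in the 33 downstream windows, beside 43.3% in 87863 windows genome-wide. AP-1 sites were found in 16.9% of the 59 flank windows and 13.0% of all, GATA sites in 22% and 18.9%, and the steroid receptor motif in 16.9% and 12.1%. TEAD sites were found in 10.2% and 17.3% and the HAND/TWIST E-box in 13.6% and 24.7%. The windows with a match split, upstream and downstream, as 6 and 4 for AP-1, 3 and 3 for TEAD, 2 and 6 for the E-box, 6 and 7 for GATA and 8 and 2 for the steroid receptor motif. No flank window held a CArG box, which 1.81% of all windows held. These shares are descriptions of letters in short windows, and the upstream windows had the lower median GC content given above.

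Genes listed around HAND2 were described by promoter state: 9 basic helix-loop-helix partners and relatives, 8 mesenchymal and hormone-linked regulators, and 6 fibroblast growth factors. Of these 23 genes, 7 had both marks in all 3 replicates, beside the 24.3% of all coding genes, and 14 had H3K27ac in all 3, beside 45.9%. Among the basic helix-loop-helix partners and relatives, Tcf4, Tcf12 and Id2 had both marks in all replicates, Twist2 had H3K27ac in 3 and H3K4me1 in 1, and Hand1, the closest relative of Hand2, had neither in any replicate. The hormone receptor genes Pgr and Esr1 had both marks in all 3 replicates. Hoxa10 and Hoxa11, homeobox regulators of the reproductive tract, had H3K27ac in 3 and H3K4me1 in 0, the same state as Hand2. Of the fibroblast growth factors, which HAND2 is known to restrain in uterine stroma, Fgf2 and Fgf7 had both marks in all replicates, and Fgf9 had H3K4me1 in 3 and H3K27ac in 0.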

How the data were processed

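ChIC-Seq libraries of oviductal muscle cells were mapped by the authors to GRCm38.p5, with cutadapt, Bowtie2 and MACS2 named in the submitters' processing notes. Per the file headers, broad peaks were called against IgG from paired ends with MACS 2.2.7.1, at p-value cutoffs of 0.05 (strong) and 0.1 (weak). The deposited pileup is a coverage signal scaled to the IgG depth, the deposited fold enrichment is its ratio to local background, and the p-value column was deposited on a −log10 scale. The q-value column was not used. Peak borders were the main measurement, and signal values only described or filtered peaks.

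Transcript starts came from GENCODE M21 and sequences from GRCm38.p6; 0 peaks ended beyond its chromosomes. The domain, its core and the gene lists were chosen with earlier results of these data known. An overlap needed 1 bp. Medians, shares and exact permutation tests were computed in Python 3.11.15 with numpy 2.4.6, pandas 2.3.3 and scipy 1.17.1, and the functions were tested on simulated data. Named were all coding genes of the domain and Hand2os1, and, among distal elements whose marks were each found in all 3 replicates, the 5 longest with both marks, the 3 longest with each mark alone and the outermost on either side. No H3K27ac element met this rule. Of the 300 bp around the Hand2 start, the 250 bp before it are printed.

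Replicate numbers recur in the labels of both marks. Over 19 intervals of 50 kb, deviations from the mark's mean correlated at 0.33, 0.68 and 0.62 between lists of the same number, so the numbers were treated as pairing the lists in an alternative test; the lists numbered 2 and those numbered 3 also share their IgG library. Other alternatives changed the p-value, fold enrichment, borders, overlap and replicates.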

Additional observations from a re-analysis of the deposited data

How the results depend on the processing

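The core share (ratio of H3K27ac to H3K4me1 2.08), the downstream share (0.699), the upstream share (0.669) and the core to flank ratio (3.11) kept their direction under every alternative run. Leaving out 1 list at a time gave 1.98 to 2.18, 0.671 to 0.718, 0.407 to 0.804 and 2.91 to 3.39, and the upstream value of 0.407 was without H3K27ac replicate 1. With a core 20 kb wider at either end the core share fell to 1.43 and the core to flank ratio to 2.11, their lowest values under any alternative, with no overlap of the lists. In the replicate block fit, with lists paired by number and signs flipped over 3 pairs, these ratios were the same and the exact p was 0.25, 0.25, 0.5 and 0.25. The smallest possible is 0.25, so no call could be made or lost with the pairing. In the same block fit the domain share (0.867), the peak count (0.996) and the median width (0.664) had exact sign-flip p = 0.5, 1.0 and 0.25.

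Most peaks were weak: 9 to 13 peaks of each replicate list in the domain reached −log10 p of 1.3. With only these peaks the domain share turned to 2.15, the median width to 2.00 and the peak count to 1.03, while the core share moved to 12.5, the core to flank ratio to 19.6, the downstream share to 0.794 (exact permutation p = 0.7, the groups now overlapping) and the upstream share to 0, no H3K27ac peak being left there. With fold enrichment at or above the list median the domain share turned to 1.01 and the peak count to 1.18, and with a domain 200 kb wider on either side the peak count turned to 1.02. Without 1 list the domain share was 0.769 to 0.917, the peak count 0.824 to 1.09 and the median width 0.590 to 0.721. The cause was not tested.

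The share of pooled flank peaks met by all replicates fell when 50% of the peak had to be covered. It went from 42.5% to 17.5% for H3K27ac and from 53.6% to 24.6% for H3K4me1. With −log10 p of at least 1.3 asked of replicate peaks alone, it was 7.50% and 1.45% of the same 40 and 69 pooled peaks. The few replicate peaks left made a fall hard to avoid, so these values do not measure support among strong peaks. Without 1 replicate the unfiltered share was 45.0% to 55.0% and 59.4% to 65.2%. With higher fold enrichment the distal elements with both marks numbered 11 and those with H3K4me1 alone 20. With marks taken from sequence in at least 2 of 3 replicate lists, elements with H3K27ac alone rose from 2 to 10. The rarity of H3K27ac alone therefore holds for the pooled lists. Built this way and without 1 list, elements with both marks numbered 17 to 28, with H3K27ac alone 0 to 18 and with H3K4me1 alone 22 to 53. Leaving out 1 list made the rule stricter for its mark only, since at least 2 lists then meant both that remained. These counts therefore do not separate the part of a single replicate from the change of rule. Elements with H3K27ac alone numbered 0, 6 and 6 without H3K27ac replicate 1, 2 or 3. Without H3K4me1 replicate 1, 2 or 3 they numbered 18, 18 and 16. Elements with H3K4me1 alone numbered 53, 53 and 48 without H3K27ac replicate 1, 2 or 3, and 22, 23 and 24 without H3K4me1 replicate 1, 2 or 3. The Jaccard index within marks exceeded that between marks by 0.113, by 0.0676 to 0.149 without 1 list, the lowest without H3K4me1 replicate 2, and by 0.298 with −log10 p of at least 1.3.

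Peak lists give borders and no coverage outside peaks, and the IgG libraries, at 3110985 to 3713369 fragments, set the scaled depth, so sequence without a peak was not shown to lack the mark.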
